A study of Homo sapiens with 6 samples.

Results

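The genes described here are readers and erasers of N6-methyladenosine (m6A), an abundant internal mark of messenger RNA. They were chosen by name, with earlier results of these data known. The list held YTHDF1, YTHDF2, YTHDF3, YTHDC1, YTHDC2, IGF2BP1, IGF2BP2, IGF2BP3, FTO and ALKBH5, and 9 of these 10 symbols were found among the 15598 genes of the count table. YTHDC1 is not analysed here. All 9 passed the filter on low counts, and 11831 genes were tested in all. RNA sequencing was done on MHCC97H, a human hepatocellular carcinoma line with high metastatic capacity. Cells with a short hairpin RNA against HNRNPC (shHNRNPC, 3 libraries) were compared with cells with a control hairpin (shcontrol, 3 libraries). Both groups carry a hairpin. The sample titles name 1 cell line and 1 knockdown target, and do not say how many hairpin constructs were used. The design text names 3 independent replicates but not separate cultures, so p-values measure the spread between these libraries, which may be technical.

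m6A is written on nascent transcripts by a nuclear methyltransferase complex, removed by the dioxygenases FTO and ALKBH5, and bound by reader proteins. The YTHDF readers act in the cytoplasm on mRNA decay and translation, YTHDC2 is an RNA helicase best known from meiosis, and the IGF2BP readers are oncofetal KH-domain proteins linked to mRNA stability, including in liver cancer. hnRNP C, the product of HNRNPC, binds uridine runs in nascent transcripts and has been proposed as an indirect reader, because m6A can open RNA structure around its binding sites.

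Total counts per library ran from 15563077 to 18328475. HNRNPC was at 847, 855 and 856 CPM (read counts scaled to TMM-adjusted library sizes) in shcontrol and at 61.5, 66.4 and 58.95 CPM in shHNRNPC, which fits the labels of all 6 libraries. Of 8 hepatocyte markers 2 passed the filter and 1 was called higher. They summed to 25.6 to 28.7 CPM in shcontrol and 32.5 to 35.8 CPM in shHNRNPC, most of it CPS1 (26.1 and 33.5 CPM on average), while ALB was at 0 and 0.019 CPM. Of 5 epithelial markers 2 were called higher: they summed to 1375 to 1394 CPM in shcontrol and 1570 to 1590 CPM in shHNRNPC, most of it the keratins KRT8 and KRT18, while KRT19 (0.042 and 0.077 CPM) and EPCAM (0.021 and 0.18 CPM) were near 0. Of 4 leukocyte markers 2 passed the filter and 1 was called higher. They summed to 40.9 to 47.5 CPM in shcontrol and 63.8 to 67.95 CPM in shHNRNPC. Nearly all of it was CD68 (43.2 and 64.9 CPM), with CD14 at 0.42 and 0.617 CPM and CD3E at or below 0.0196 CPM. Markers of fibroblasts summed to 434.5 to 440.7 CPM in shcontrol and 355.2 to 359.0 CPM in shHNRNPC, most of it ACTA2, with DCN and LUM at or below 0.0772 CPM. Mitochondrial transcripts took 1.56% to 1.60% of counts in shcontrol and 1.42% to 1.45% in shHNRNPC. The part of these shifts in the results was not tested.

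The promoters of 3 genes are shown because YTHDC2 and IGF2BP2 had the largest falls as counted and YTHDF2 was not called. They come from RefSeq (GRCh38.p14), run 5′ to 3′ on the gene's own strand, and cover 250 bases before the start site to 50 after it. Where the table held more than 1 window, the one nearest the deposited 5′ end was taken. Capitals mark matches on either strand to the CCAAT box (CCAAT), the TATA box (TATAAA), the GC box (GGGCGG), the E-box (CACGTG) and the cAMP response element (TGACGTCA), and GC boxes may overlap each other. The windows are chr5:113513444-113513743 on the plus strand, chr3:185824993-185825292 on the minus strand and chr1:28736374-28736673 on the plus strand.
YTHDC2: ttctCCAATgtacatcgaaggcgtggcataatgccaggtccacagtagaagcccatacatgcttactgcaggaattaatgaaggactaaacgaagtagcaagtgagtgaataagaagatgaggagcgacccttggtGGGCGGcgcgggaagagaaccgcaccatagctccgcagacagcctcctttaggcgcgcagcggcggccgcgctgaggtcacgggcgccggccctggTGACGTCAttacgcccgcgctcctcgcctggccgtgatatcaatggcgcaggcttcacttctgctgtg
IGF2BP2: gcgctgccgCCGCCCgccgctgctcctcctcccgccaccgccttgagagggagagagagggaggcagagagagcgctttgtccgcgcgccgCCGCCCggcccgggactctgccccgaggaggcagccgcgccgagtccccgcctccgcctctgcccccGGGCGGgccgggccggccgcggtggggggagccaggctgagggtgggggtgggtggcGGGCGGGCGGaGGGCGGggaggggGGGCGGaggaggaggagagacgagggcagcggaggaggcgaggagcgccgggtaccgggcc
YTHDF2: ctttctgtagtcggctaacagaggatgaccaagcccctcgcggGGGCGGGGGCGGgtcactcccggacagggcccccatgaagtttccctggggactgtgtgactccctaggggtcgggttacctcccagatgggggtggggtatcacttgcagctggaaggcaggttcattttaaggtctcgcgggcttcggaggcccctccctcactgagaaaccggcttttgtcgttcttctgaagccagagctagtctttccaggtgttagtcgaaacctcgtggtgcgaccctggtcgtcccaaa
The YTHDC2 window held 1 CCAAT box, 1 GC box and 1 cAMP response element, the last at base 233 of the window, and 1.85% of the 35116 promoters in the table hold that element. The IGF2BP2 window held 7 GC boxes and no other motif, at a GC content of 80.67% against a median of 58.67% over all promoters. The YTHDF2 window held 2 GC boxes. A GC box was found in 15786 of all promoters and a CCAAT box in 12155, or 34.6%. A window was found for 7 of the 9 genes, and none of the 7 held the TATA box, which 11.5% of all promoters hold. The windows of ALKBH5 and IGF2BP3 do not cover the deposited 5′ ends, which lie 750 and 122787 bases from the start sites used. Of the other motif searched, the E-box, 7.26% of all promoters hold a copy. The YTHDF1 window held 1 and the IGF2BP3 window 2, and the other windows held none. A match describes letters, not a binding site.

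The readers and erasers were either lower or level in shHNRNPC. YTHDC2, IGF2BP2, YTHDF3, IGF2BP3, ALKBH5 and FTO fell, by 1.10-fold to 1.64-fold, at an adjusted p under 0.05 in edgeR's quasi-likelihood test, and YTHDF1, YTHDF2 and IGF2BP1 did not pass. Over all tested genes 31.3% were called lower and 29.8% higher, so a call by itself is common in this comparison. By edgeR and by DESeq2 0 of the 9 were called higher, and 0 were higher at an unadjusted p under 0.05. The median log2 fold change was -0.16 over the 9 genes and -0.0041 over all tested genes. Against a 1.5-fold change edgeR called 0 of the 9 (1 at an unadjusted p under 0.05), where 5.14% of all tested genes passed. In 6 of the 9 every shHNRNPC library lay below every shcontrol library, as in 33.0% of all tested genes.

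Scaling moved these counts. With library size alone 8 of the 9 were called lower, against 35.2% of all genes, and the median over all genes was then -0.044. With an offset for transcript GC content and length 6 were called lower, against 29.9% of all genes, but YTHDF1 and YTHDF2 were among them and YTHDF3 and FTO were not. The offset also removes any response to the knockdown that follows GC content or length. Technical bias and such a response cannot be told apart here. In bulk RNA, fewer cells that express a gene and less of its RNA per cell cannot be told apart.

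**Figure D1:**
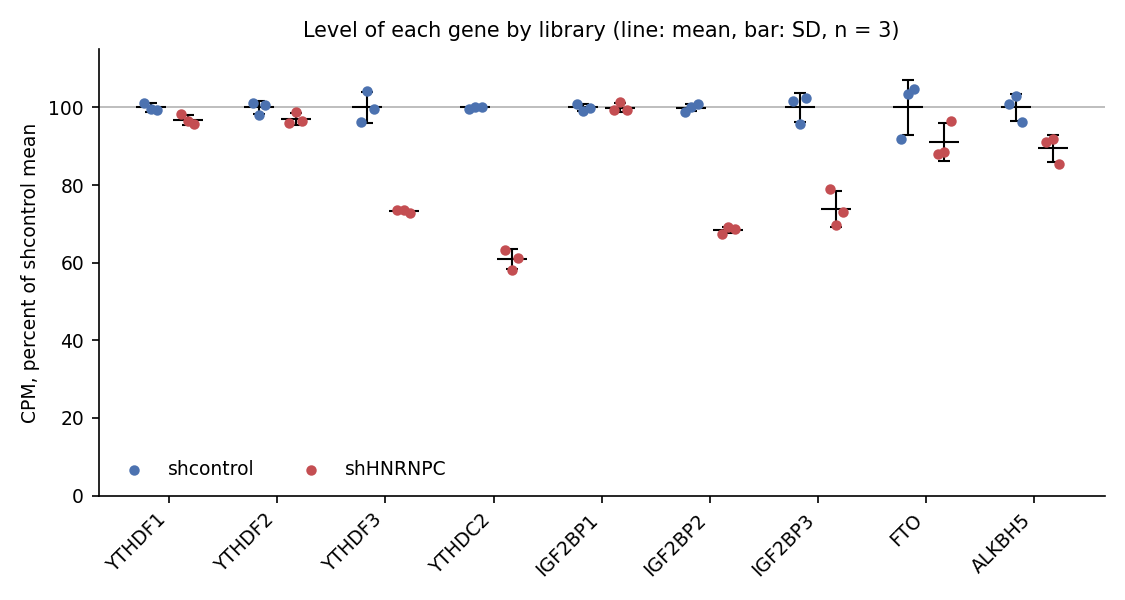
Level of each gene in every library as CPM in percent of the shcontrol mean; points are libraries, lines means and bars SD (n = 3 per group). YTHDC2, IGF2BP2, YTHDF3 and IGF2BP3 have all 3 shHNRNPC libraries well below the controls, and the libraries of IGF2BP1, YTHDF2 and FTO overlap between groups.

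YTHDC2, the helicase reader, fell the most of the 9 as counted, while with the GC and length offset IGF2BP2 did. Its gene lies on chromosome 5, 113513683 to 113595284, plus strand, as deposited (build not given in the sources used here). Its shcontrol libraries, given here and below in the order NC_3, NC_3_2 and NC_3_3, were at 37.5, 37.7 and 37.7 CPM. Its shHNRNPC libraries, in the order SI_3, SI_3_2 and SI_3_3, were at 23.9, 21.9 and 23.1 CPM. The groups lay far apart. The controls, at 638, 596 and 700 reads, were nearly identical in CPM, closer than counting that many reads gives on average. The log2 fold change was -0.71 (SE 0.064, edgeR adjusted p = 2.46e-13), or 61.0% of shcontrol (95% interval 55.7% to 66.7%). Of all tested genes 5.63% had a lower fold change. With the GC and length offset it was -0.38 (adjusted p = 7.46e-07). The genes with the most similar profile over the 6 libraries were BROX, CTGF and ARFGEF2, at root mean square differences of 0.020, 0.021 and 0.024 log2 units from YTHDC2. Profiles were centred on the shcontrol mean, so this nearness largely restates similar log2 fold changes (-0.71, -0.72 and -0.72). Shared regulation was not tested.

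Of the cytoplasmic YTHDF readers only YTHDF3 was called. YTHDF1, linked to translation (chromosome 20, 63195429 to 63216234, minus strand), was at 133, 131 and 131 CPM in shcontrol and 129, 127 and 126 CPM in shHNRNPC. Its shHNRNPC libraries all lay slightly below the controls, at 96.8% of shcontrol (95% interval 92.4% to 101.4%, edgeR adjusted p = 0.226). YTHDF2, which recruits the CCR4-NOT deadenylase (chromosome 1, 28736621 to 28769774, plus strand), was at 109, 106 and 109 CPM in shcontrol and 104, 107 and 104 CPM in shHNRNPC. Its groups overlapped, at 97.1% of shcontrol (95% interval 92.3% to 102.1%, edgeR adjusted p = 0.313). Both were called lower with library size alone (log2 fold changes -0.09 and -0.08) and with the GC and length offset (-0.15 and -0.08).

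YTHDF3, thought to act together with its paralogs (chromosome 8, 63168553 to 63212785, plus strand), was at 62.7, 67.9 and 64.9 CPM in shcontrol and 47.95, 47.9 and 47.5 CPM in shHNRNPC. Every shHNRNPC library lay below every control. The log2 fold change was -0.45 (SE 0.048, edgeR adjusted p = 5.27e-11), or 73.3% of shcontrol (95% interval 68.6% to 78.5%). The call was lost with the GC and length offset (log2 fold change -0.09, adjusted p = 0.101). The longest coding transcript of YTHDF3 in GENCODE 29 has a GC content of 38.8%, and 10.4% of tested genes have a lower one.

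Among the IGF2BP readers, IGF2BP2 and IGF2BP3 fell and IGF2BP1 was level. IGF2BP2 (chromosome 3, 185643975 to 185825012, minus strand) was at 121, 123 and 124 CPM in shcontrol and 82.6, 84.7 and 84.0 CPM in shHNRNPC. The groups were separated by many times the spread within each. The log2 fold change was -0.55 (SE 0.037, edgeR adjusted p = 1.78e-17), or 68.4% of shcontrol (95% interval 65.0% to 72.004%), and it was -0.58 with the GC and length offset.

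IGF2BP1, the member best known for binding MYC mRNA (chromosome 17, 48997412 to 49055650, plus strand), was at 93.1, 91.6 and 92.3 CPM in shcontrol and 91.8, 93.6 and 91.7 CPM in shHNRNPC. The libraries of the groups were interleaved. The level was 99.97% of shcontrol with a 95% interval of 94.8% to 105.4% (edgeR adjusted p = 0.994), so a fall of the size measured for IGF2BP2 lies outside that interval.

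IGF2BP3, at the lowest CPM of the 9, was at 23.5, 22.1 and 23.7 CPM in shcontrol and 18.2, 16.1 and 16.9 CPM in shHNRNPC. The groups did not overlap. The log2 fold change was -0.44 (SE 0.078, edgeR adjusted p = 4.31e-06), and -0.18 (adjusted p = 0.0443) with the GC and length offset. Its deposited position, chromosome 7, 23311127 to 23347704 on the minus strand, spans 36578 bases and its 5′ end lies 122787 bases from the RefSeq start site. At the 3′ end it overlaps MALSU1, a mitochondrial ribosome assembly gene on the opposite strand, by 603 bases as deposited. MALSU1 rose, from 69.6, 63.0 and 66.2 CPM in shcontrol to 103.8, 98.9 and 103.8 CPM in shHNRNPC (log2 fold change 0.62, edgeR adjusted p = 2.35e-17). The use of strand in counting is not given in the sources used here, so the values of both genes are uncertain in the shared stretch, and its part in them was not tested.

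**Figure D2:**
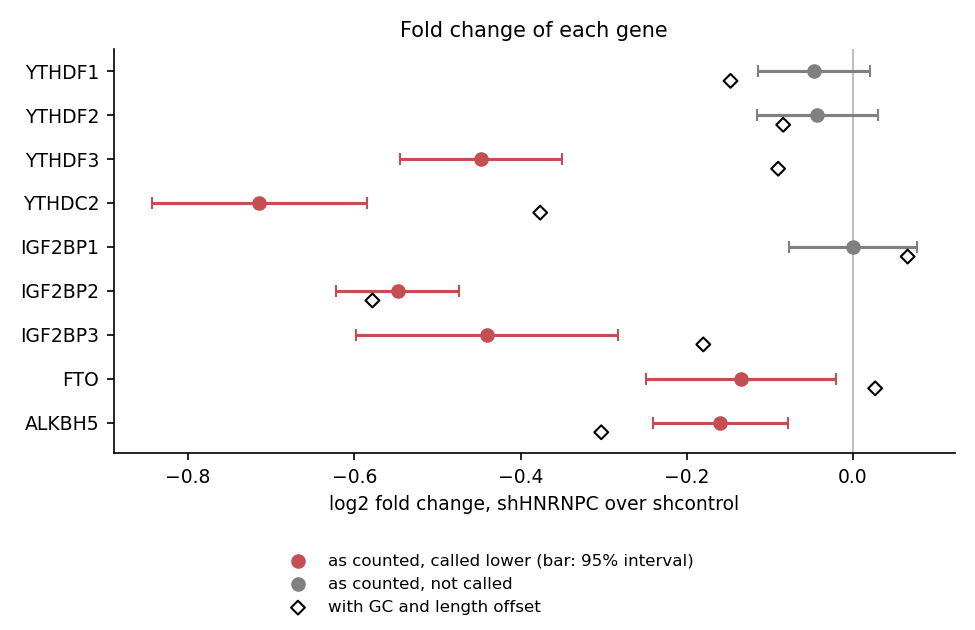
Log2 fold change of each gene, shHNRNPC over shcontrol, with its 95% interval, and the value with the offset for transcript GC content and length. IGF2BP2 is near -0.55 in both, YTHDF3 moves from -0.45 to -0.09 and ALKBH5 from -0.16 to -0.30.

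The erasers showed small falls. ALKBH5, a nuclear demethylase (chromosome 17, 18183078 to 18209398, plus strand), was at 97.8, 99.9 and 93.2 CPM in shcontrol and 88.4, 89.0 and 82.9 CPM in shHNRNPC. The groups did not overlap, but the gap between them was narrower than the range within each. The log2 fold change was -0.16 (SE 0.040, edgeR adjusted p = 6.75e-04), or 89.5% of shcontrol (95% interval 84.6% to 94.7%), and it was -0.30 with the GC and length offset.

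FTO, a demethylase also known from obesity genetics (chromosome 16, 53704069 to 53979499, plus strand), was at 43.0, 48.4 and 49.0 CPM in shcontrol and 41.2, 41.4 and 45.2 CPM in shHNRNPC. Its groups overlapped, since the highest shHNRNPC library lay above the lowest control. The log2 fold change was -0.13 (SE 0.057, edgeR adjusted p = 0.0377), or 91.1% of shcontrol (95% interval 84.1% to 98.6%). The call was lost without NC_3_2 (adjusted p = 0.128), NC_3_3 (0.201), SI_3 (0.127) or SI_3_2 (0.133), with upper-quartile scaling (0.0639) and with DESeq2 (0.140), and the GC and length offset turned its direction (log2 fold change 0.03, adjusted p = 0.707). The authors' deposited table gives FTO a log2 fold change of -0.13 with an adjusted p of 0.139.

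Levels were compared between genes per length, as CPM per kilobase of the exon union of each gene in GENCODE 29. In shcontrol YTHDF1 was highest at 39.8 ± 0.425 CPM per kilobase (SD, n = 3), before ALKBH5 at 30.4 ± 1.06, YTHDF2 at 27.9 ± 0.458 and IGF2BP2 at 25.9 ± 0.245. YTHDF3 followed at 10.6 ± 0.426 CPM per kilobase, IGF2BP1 at 10.1 ± 0.082, YTHDC2 at 3.48 ± 0.0099, IGF2BP3 at 2.72 ± 0.099 and FTO at 2.19 ± 0.155. The median over tested genes was 5.32 CPM per kilobase, so 6 of the 9 lay above it. Of the neighbours in this order only YTHDF3 and IGF2BP1 overlapped in single libraries. In shHNRNPC IGF2BP1 (10.1 ± 0.122 CPM per kilobase) stood above YTHDF3 (7.75 ± 0.042), ALKBH5 (27.2 ± 1.06) and YTHDF2 (27.1 ± 0.423) overlapped, and so did YTHDC2 (2.12 ± 0.091), IGF2BP3 (2.01 ± 0.129) and FTO (1.99 ± 0.105). The order depends on the length used. The deposited positions of IGF2BP3 and FTO are shorter than their GENCODE 29 spans, 23310209 to 23470467 and 53701692 to 54158512. Their levels per kilobase may be too low for this reason, which was not tested. With the longest coding transcript, an alternative chosen after seeing the data, YTHDF2 (36.9) came before ALKBH5 (35.3) in shcontrol, and YTHDC2 (5.96), IGF2BP3 (5.44) and FTO (3.98) were over 1.5 times as high.

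**Figure D3:**
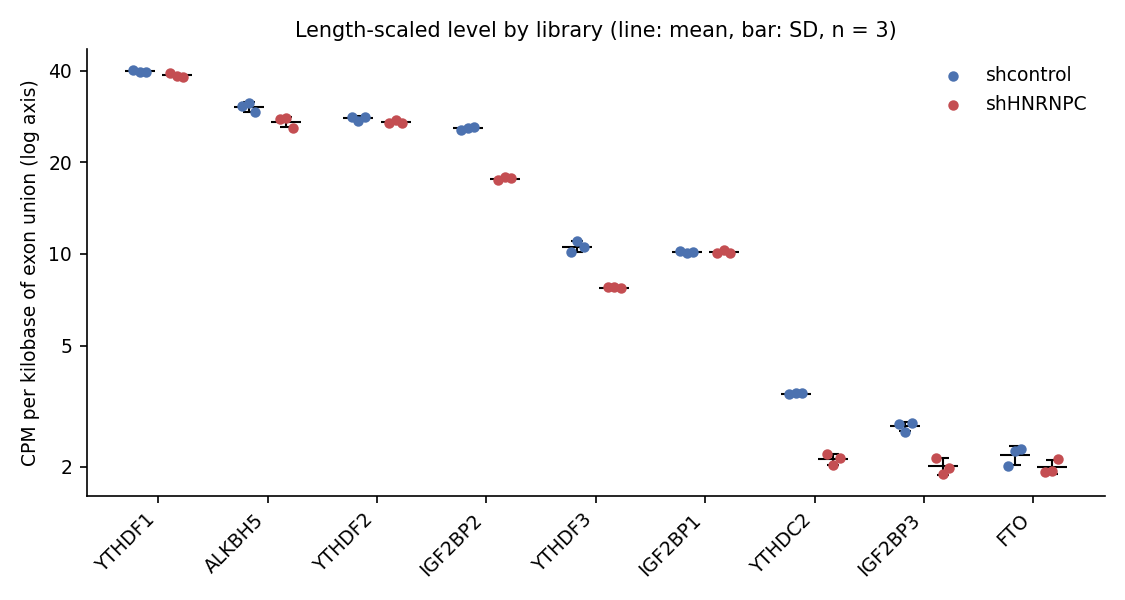
CPM per kilobase of exon union of each gene in every library on a log axis, ordered by the shcontrol mean; points are libraries, lines means and bars SD (n = 3 per group). YTHDF1, ALKBH5, YTHDF2 and IGF2BP2 form an upper tier in shcontrol, and IGF2BP2 goes from 25.9 to 17.7 CPM per kilobase in shHNRNPC.

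As counted, the make-up of both reader families differed between the groups. YTHDF3 supplied 13.5% ± 0.5997 (SD, n = 3) of the summed CPM per kilobase of the 3 YTHDF genes in shcontrol and 10.5% ± 0.035 in shHNRNPC. The YTHDF sum was 78.4 ± 0.356 in shcontrol and 73.5 ± 0.616 CPM per kilobase in shHNRNPC. IGF2BP2 supplied 66.8% ± 0.416 of the IGF2BP sum in shcontrol and 59.3% ± 0.416 in shHNRNPC, and IGF2BP1 26.2% ± 0.269 and 33.98% ± 0.213. The IGF2BP sum was 38.7 ± 0.249 in shcontrol and 29.8 ± 0.195 CPM per kilobase in shHNRNPC. None of these 5 quantities overlapped between groups, and no share over other gene families was computed. With the GC and length offset the log2 fold changes of YTHDF1, YTHDF2 and YTHDF3 were -0.15, -0.08 and -0.09, so the shift in the YTHDF family was not seen there, while those of IGF2BP1 and IGF2BP2 were 0.07 and -0.58.

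A ratio of counts of a pair of genes in the same library needs no scaling between libraries, but it is not free of effects of transcript GC content and length. IGF2BP1 over IGF2BP2 was 0.768, 0.747 and 0.747 in shcontrol and 1.11, 1.11 and 1.09 in shHNRNPC, a 1.46-fold shift that put IGF2BP1 ahead in reads. IGF2BP1 over IGF2BP3 was 3.999 ± 0.123 and 5.43 ± 0.396, YTHDF1 over YTHDF3 2.02 ± 0.099 and 2.67 ± 0.027, and YTHDF2 over YTHDF3 1.66 ± 0.092 and 2.19 ± 0.033. In these 4 of 7 pairs the groups did not overlap, and each had p = 0.1 in the exact two-sided permutation test (0.175 after Benjamini-Hochberg adjustment over the 7), the smallest p that 3 against 3 libraries allow. YTHDF1 over YTHDF2 was 1.22 ± 0.018 and 1.22 ± 0.029 (exact p = 1.0), IGF2BP2 over IGF2BP3 5.30 ± 0.205 and 4.92 ± 0.371 (exact p = 0.3), and FTO over ALKBH5 0.483 ± 0.043 and 0.492 ± 0.046 (exact p = 0.9). These 3 ratios overlapped between groups. The 4 pairs without overlap each set a gene called lower (YTHDF3, IGF2BP2 or IGF2BP3) against a paralog that was not called. They restate those falls and are not separate results. The share of all gene pairs without overlap was not computed. With the GC and length offset the log2 shift of YTHDF1 over YTHDF3 turned from 0.40 to -0.06 and that of YTHDF2 over YTHDF3 went from 0.40 to 0.0061. IGF2BP1 over IGF2BP2 was then at 0.64 and IGF2BP1 over IGF2BP3 at 0.25, and shifts of -0.40 for IGF2BP2 over IGF2BP3 and 0.33 for FTO over ALKBH5 stood against -0.11 and 0.03 as counted.

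**Figure D4:**
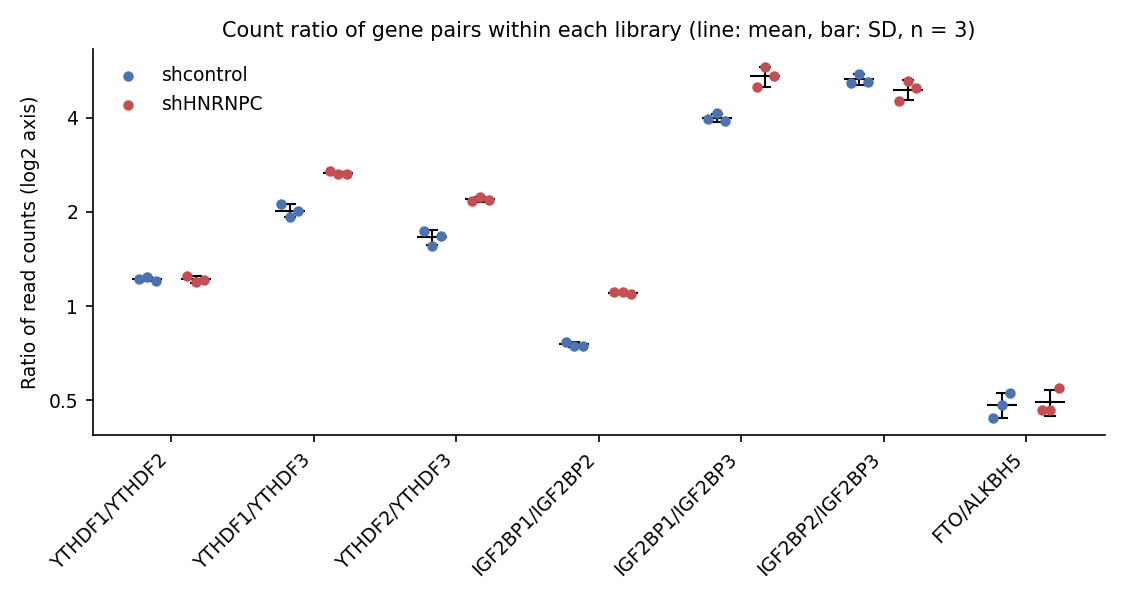
Ratio of read counts of a pair of genes in the same library, for 7 pairs; points are libraries, lines means and bars SD (n = 3 per group). The ratios to YTHDF3 and those of IGF2BP1 to IGF2BP2 and IGF2BP3 are higher in all 3 shHNRNPC libraries, and the other 3 pairs overlap.

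The longest coding transcript of each gene in GENCODE 29 was searched for runs of at least 5 T (U in the RNA), the letters hnRNP C binds. All 9 lay above the median of tested genes, 1.76 runs per kilobase, from 2.30 in FTO to 5.65 in IGF2BP3. The highest densities were in IGF2BP3, which fell, and YTHDF1 (5.15), which was not called. GGACT, a common form of the m6A consensus, occurred 0.303 times per kilobase in YTHDF1 to 1.46 in ALKBH5, around a median of 0.926. YTHDF3, YTHDC2 and IGF2BP3 had the lowest GC contents of the 9 (38.8%, 40.1% and 40.5%, median of tested genes 48.4%). Introns were not searched.

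The genes around the readers and erasers were described as lists by their counts and medians. Beside them, 31.3% of all tested genes were called lower and 29.8% higher, with a median of -0.0041. With the GC and length offset 3529 of 11813 genes were lower and 3087 higher, with a median of -0.019. No list was tested against these shares. Of 13 m6A writers and related methyltransferase genes, 6 were called lower and 3 higher by edgeR, with a median log2 fold change of -0.10. VIRMA, the scaffold of the writer complex, fell from 53.9 ± 2.69 to 33.8 ± 1.51 CPM (SD, n = 3). ZC3H13, which keeps the complex in the nucleus, fell from 65.7 ± 0.962 to 43.1 ± 2.79 CPM. METTL3, the catalytic subunit, fell 1.23-fold, and TRMT112, a cofactor of other RNA methyltransferases, rose 1.21-fold (log2 fold change 0.27, and 0.05 with the GC and length offset). With the offset the log2 fold changes of VIRMA, ZC3H13 and METTL3 were -0.36, -0.30 and -0.43, against -0.68, -0.60 and -0.30 as counted. Under it 6 of the 13 were lower and 4 higher (median -0.15).

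Of 22 tested reader partners, 9 were called lower and 6 higher (median -0.07). XRN1, an exonuclease that binds YTHDC2, fell from 21.1 ± 1.32 to 10.6 ± 0.832 CPM (log2 fold change -1.001, edgeR adjusted p = 2.45e-13, and -0.53 with the GC and length offset). MATR3 and PABPC1, cofactors of the IGF2BP proteins, fell 1.75-fold and 1.29-fold. EIF3A, of the initiation factor that YTHDF1 contacts, fell 1.504-fold. The 6 partners called higher, named after their values were seen, were CNOT6, CNOT8, CNOT9, CNOT11, SRSF3 and EIF3B. EIF3B, of the same factor as EIF3A, rose 1.06-fold (edgeR adjusted p = 0.00136), and SRSF3 rose 1.18-fold. MEIOC, the meiotic partner of YTHDC2, was under the filter. With the offset 5 partners were lower and 9 higher, and the median was 0.04.

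Of 8 other tested proteins proposed to bind m6A, 6 were called lower (median -0.16), and 0 higher by edgeR or DESeq2 or at an unadjusted p under 0.05. G3BP1, a stress granule protein, fell from 339 ± 8.47 to 230.1 ± 2.10 CPM, with a log2 fold change of -0.56, and -0.11 with the GC and length offset. LRPPRC, an RNA-binding protein of mitochondria, fell 1.37-fold and SND1, a nuclease-domain protein, 1.12-fold. HNRNPA2B1, proposed as a nuclear reader, fell 1.11-fold, but the offset turned it higher (log2 fold change 0.16, edgeR adjusted p = 8.14e-11). With the offset 5 of the 8 were lower and 3 higher (median -0.13), and without SI_3_3 1 was higher.

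Of 7 AlkB relatives of the erasers, dioxygenases with other substrates, 2 were higher and 1 lower (median -0.0031). ALKBH6 and ALKBH7 rose 1.38-fold and 1.252-fold, and ALKBH8, a tRNA-modifying enzyme, fell 1.42-fold. ALKBH7 and ALKBH8 lost their calls with the offset, under which 3 of the 7 were lower and 1 higher (median -0.20). Of 7 tested transcripts linked to the IGF2BP proteins, 2 were higher and 2 lower (median 0.04). With the offset 2 were higher and 4 lower, and the median turned to -0.14. BTRC, a ubiquitin ligase subunit, fell 1.28-fold. HMGA1, a chromatin protein, rose 1.14-fold but was at a log2 fold change of -0.0023 with the offset. ACTB, beta-actin, rose 1.03-fold (log2 fold change 0.04), but was at -0.0023 with library size alone and called lower with the offset (-0.14), and it lost its call without NC_3, NC_3_2 or SI_3. MYC, named after its values were seen, was at 21.9 ± 1.38 and 21.1 ± 2.36 CPM (edgeR adjusted p = 0.544).

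**Figure D5:**
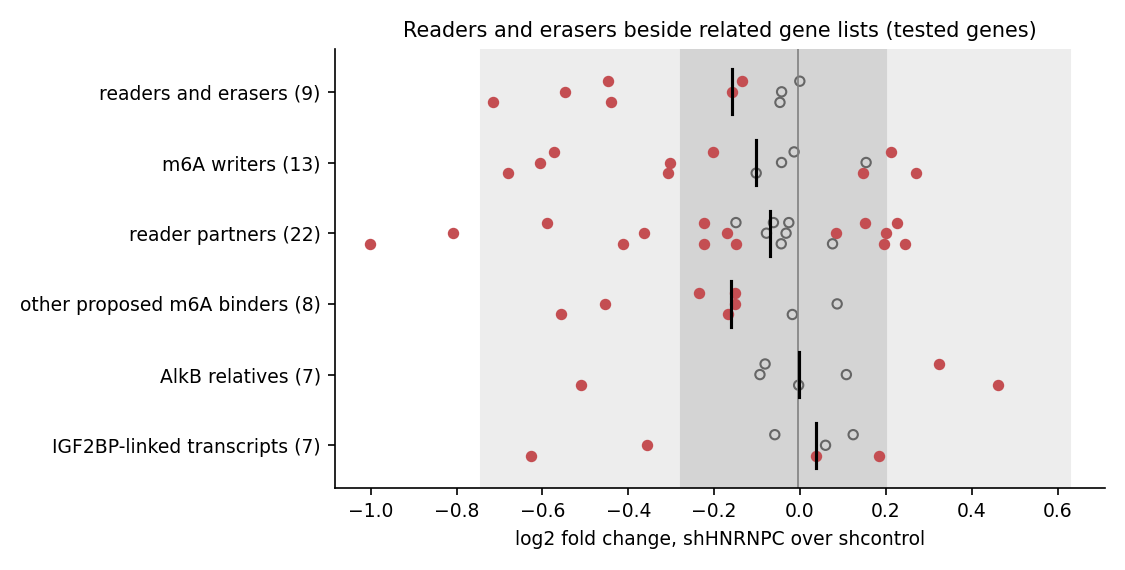
Log2 fold change of each tested gene in the lists; filled points passed the test, open points did not, and black bars are list medians. Grey bands hold the middle 50% (-0.28 to 0.20) and 90% (-0.74 to 0.63) of all tested genes, and the 9 readers and erasers all lie inside the wider band.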

How the data were processed

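The 6 RNA samples, 3 per group, were prepared with Trizol and an NEBNext Ultra kit, per the labels' protocols. The series' design text speaks of a microarray, but its type and values are of sequencing. STAR, HTSeq 0.6.0 and DESeq2 are named in the submitters' processing notes. For the build, annotation and strand setting nothing is stated in these sources. The deposited counts are whole reads per gene, not normalised by the authors. The log2 fold changes and adjusted p-values of the deposited table were computed by the authors. Columns named NC and SI were assigned to the groups, not to single samples. Another 24 columns of per-library values were not used, FPKM among them, so levels per length, planned on FPKM, rest on counts and GENCODE 29 lengths.

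Counts were filtered with filterByExpr, scaled by TMM and tested in edgeR 4.0.16 (glmQLFit, glmQLFTest, Benjamini-Hochberg, threshold 0.05) in R 4.3.3, with code tested on simulated data. The offset was a smooth of GC content and length of the longest coding GENCODE 29 transcript, per library (mgcv 1.9.3). It was fitted to each library's deviation from the mean over all libraries, so it also removes group differences that follow GC content or length. Other alternatives were other scalings and filters, DESeq2 1.42.0, limma 3.58.1 (voom) and a test against a 1.5-fold change on all 6 libraries. Separate fits left out each library in turn, or added a block on the column suffix, with and without the offset. Libraries of 1 group differed by a chi-square of 1.56 to 2.50 per gene, beyond sampling noise, so none was counted as a second reading of another. This cannot show that they came from separate cultures. Named genes were HNRNPC, the list members, up to 4 genes with the smallest adjusted p in each related list, and the 3 profiles nearest to the member with the largest change. Values of 2 genes of the lists are not reported here. Members and lists were chosen with earlier results of these data known.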

Additional observations from a re-analysis of the deposited data

How the results depend on the processing

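YTHDC2, IGF2BP2, IGF2BP3 and ALKBH5 stayed called lower under 16 of 17 alternatives, all but the test against a 1.5-fold change, and YTHDF3 under 14, being lost also with the GC and length offset, with and without a block. The count of readers and erasers called lower was 5 to 6 with each library left out in turn, 8 with library size alone and 0 against a 1.5-fold change. IGF2BP1, not called under any alternative, turned sign with RLE (0.0060), upper-quartile scaling (0.014), no filter (0.0035), a mean of at least 1 CPM (0.0036), DESeq2 (0.0034) and the offset (0.066), and ran from -0.010 to 0.0054 with each library left out. With the offset FTO was at 0.027, HNRNPA2B1 at 0.16, HMGA1 at -0.0023 and ACTB at -0.14, and ACTB was at -0.0023 with library size alone. With each library left out the log2 ratio difference ran from -0.023 to 0.011 for YTHDF1 over YTHDF2 and from -0.049 to 0.0895 for FTO over ALKBH5.

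Against a 1.5-fold change 391 of all tested genes were lower and 217 higher, 2 reader partners (MATR3 and XRN1) were lower and 0 higher, and 0 m6A writers, other proposed m6A binders, AlkB relatives or IGF2BP-linked transcripts were called. With the offset there were 5 reader partners lower, 3 other binders higher, 3 AlkB relatives lower and 1 higher, and 4 IGF2BP-linked transcripts lower. Of the IGF2BP-linked transcripts 1 was higher with library size alone and 1 to 3 with each library left out (1 without NC_3, NC_3_2 or SI_3), and of the other binders 0 to 1 (1 without SI_3_3). The cause was not tested. The column names do not carry the replicate numbers of the sample titles. A replicate block on the suffix that they share between groups, chosen after seeing the data, left 6 readers and erasers lower, 3671 of all tested genes lower and 3488 higher, and 1 IGF2BP-linked transcript higher, with ACTB lost (adjusted p = 0.0529). With the replicate block and the offset together 5 reader partners were lower, 3 other binders higher, 3 AlkB relatives lower and 1 higher, and 4 IGF2BP-linked transcripts lower, with IGF2BP1 at 0.066, FTO at 0.027, HNRNPA2B1 at 0.16, HMGA1 at -0.0022 and ACTB at -0.14. Deviations of libraries with the same suffix correlated at -0.0414, 0.00839 and -0.0432, so the suffixes were not taken as pairs. With the offset the log2 ratio difference of YTHDF1 over YTHDF3 was -0.057. Counts of the 9 genes ran from 282 to 2426 per library, so depth limits IGF2BP3 most.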
